A study of Mus musculus with 6 samples.

Results

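The genes described here are 10 genes that build the contacts between neighbouring endothelial cells (EC), namely Cdh5, Cdh2, Ctnnb1, Ctnnd1, Pecam1, Cldn5, Jam2, F11r, Esam and Tjp1. They were chosen by name from knowledge of endothelial junctions, with earlier results of these data known. All 10 were found among the 54429 genes listed by symbol in the count table, of which 27948 had a count in any library. They were measured by ribodepleted RNA-seq in primary aortic EC of adult wild-type C57BL/6 mice, bought from a supplier and transduced in culture with a lentiviral vector that carries Meis1 (Meis1-OE) or with the control vector (YFP-CTRL), with 3 libraries per condition. Transduced cells of both conditions were sorted as YFP+CD31+VEC+, that is for the vector's reporter and for the proteins encoded by Pecam1 and Cdh5, and were then re-plated and grown to confluency before RNA was taken. Neither untransduced EC nor freshly isolated aorta were analysed here. Nothing in the labels states how many animals the cells came from, so p-values measure the spread between these 3 cultures per condition.

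EC are held together by adherens junctions, in which cadherins bind each other across the cell border and are tied to actin by catenins, and by tight junctions, in which claudins and immunoglobulin-like adhesion proteins seal the space between cells above scaffold proteins. VE-cadherin, the product of Cdh5, is the cadherin that defines the endothelial adherens junction, and claudin-5, the product of Cldn5, is the main claudin of endothelium and a principal seal of the blood-brain barrier. Beta-catenin, the product of Ctnnb1, also carries Wnt signals to the nucleus. Meis1 is a homeodomain transcription factor of the TALE class that binds DNA together with Pbx and Hox proteins.

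Of these genes, a claudin and a junctional adhesion molecule rose and no other passed the test. Cldn5 rose 3.50-fold and Jam2 rose 3.98-fold in Meis1-OE EC, both with all 3 Meis1-OE libraries above all 3 YFP-CTRL libraries. Jam2 passed in all 14 alternative fits and Cldn5 in 9 of 14. Cdh5 and Cdh2 lay lower in every Meis1-OE library than in any YFP-CTRL library, at 61.4% and 72.1% of the control level, and neither passed the threshold, an adjusted p under 0.05 by edgeR's quasi-likelihood test. The catenins Ctnnb1 and Ctnnd1, the scaffold Tjp1 and Pecam1 had overlapping conditions.

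RefSeq tables of build GRCm38.p6 held a promoter entry, 300 bases around the start site, for 5 of the 10 genes, namely Cldn5, F11r, Ctnnd1, Tjp1 and Ctnnb1. The promoter of Cldn5, which rose, is printed beside that of F11r, another transmembrane protein of tight junctions, which did not pass the test. Capitals mark CTGTCA, the reverse complement of TGACAG, the letters bound by Meis proteins. Both sequences are on the plus strand, at chr16:18776597-18776896 for Cldn5 and at chr1:171437311-171437610 for F11r.
Cldn5: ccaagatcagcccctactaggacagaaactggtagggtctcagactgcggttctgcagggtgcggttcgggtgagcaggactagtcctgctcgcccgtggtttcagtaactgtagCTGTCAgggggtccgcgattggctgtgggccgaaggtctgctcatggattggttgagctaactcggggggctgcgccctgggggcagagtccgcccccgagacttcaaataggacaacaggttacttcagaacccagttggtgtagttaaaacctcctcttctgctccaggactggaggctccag
F11r: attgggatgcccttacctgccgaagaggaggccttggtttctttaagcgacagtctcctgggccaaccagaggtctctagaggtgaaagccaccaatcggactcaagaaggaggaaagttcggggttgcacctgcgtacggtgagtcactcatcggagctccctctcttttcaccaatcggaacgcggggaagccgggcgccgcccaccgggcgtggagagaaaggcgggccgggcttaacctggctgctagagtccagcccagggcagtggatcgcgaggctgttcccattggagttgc
The letters searched on both strands were TGACAG for Meis proteins, GTAAACA for forkhead proteins, CTTTGAT for TCF proteins and CAGGAA for ETS proteins. Cldn5 held 1 match to TGACAG, whose first base lies at position -135 from the start site, and no match to the other sets. Of all 32851 promoter entries, 19.2% hold TGACAG on either strand, 3.65% hold GTAAACA, 3.73% hold CTTTGAT and 30.6% hold CAGGAA. The only other match among the junction genes with an entry was 1 match to CAGGAA in the first of the entries of Ctnnd1, at position -106. A match describes the letters only, and binding was not measured here.

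Total counts ran from 34176592 to 47956569 per library. The filter on low counts kept 16065 genes, the 10 junction genes among them. Of these 16065 genes, 4.14% were called higher and 2.73% lower with Meis1-OE at an adjusted p under 0.05, and for 17.2% all Meis1-OE libraries lay above, and for 15.9% below, all YFP-CTRL libraries. Meis1 itself differed by 11.07 on the log2 scale and had at most 85 counts in any YFP-CTRL library. The YFP-CTRL libraries differed from each other in proliferation genes, with library C nearest to the Meis1-OE libraries. The mean log2 level of 15 proliferation genes was 4.20 in YFP-CTRL A, 5.20 in B and 6.39 in C, against 6.42, 6.42 and 6.47 in Meis1-OE EC. Because of this, values without YFP-CTRL C and with this score as a covariate are given where they alter the call of a junction gene. Every Meis1-OE library scored above every control, so the score and the condition cannot be fully told apart. The fit with the covariate rests mainly on the spread of the score over the control libraries. In RNA from a whole culture, fewer cells that express a gene cannot be told apart from less RNA of that gene per cell.

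Of the 10 junction genes, 2 were higher and none was lower at an adjusted p under 0.05, and all Meis1-OE libraries lay above the controls for 3 genes and below them for 2. Their median log2 fold change was 0.077, against 0.01 over all tested genes. Because the 10 genes were chosen with earlier results known, these figures describe them and are no independent comparison with all genes. Before adjustment Cdh5, Cdh2 and F11r had p-values of 0.00392, 0.00541 and 0.0401 in the same edgeR fit across all genes, so that 5 of the 10 genes had an unadjusted p under 0.05, as did 4205 of all tested genes. The DESeq2 Wald test, with 6.18% of its tested genes higher and 6.13% lower, called the same 2 genes higher and called Cdh5 and Cdh2 lower. Without YFP-CTRL C, where 16.5% of genes were called higher and 15.2% lower, the same 2 genes were higher and Cdh5, Cdh2 and F11r were lower.

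**Figure D1:**
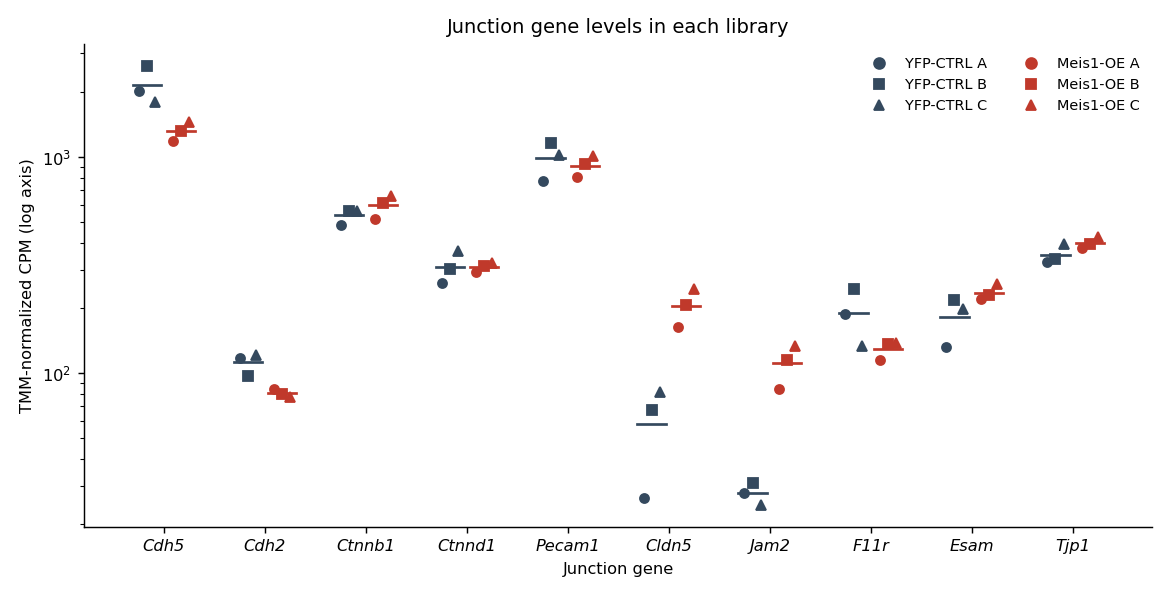
TMM-normalized CPM (log axis) of each junction gene in each of the 6 libraries, with circles, squares and triangles for libraries A, B and C and a bar at the mean of each condition. Cldn5 and Jam2 lie higher in all 3 Meis1-OE libraries, and Cdh5 and Cdh2 lie lower in all 3, than in any YFP-CTRL library.

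Among the cadherins, Cdh5 (chr8:104101613-104144504, mm10) was at 1182, 1314 and 1452 CPM (counts scaled to the library's TMM-normalized total) with Meis1-OE, and at 2017, 2628 and 1784 with YFP-CTRL, each in the order of libraries A, B and C, which is kept below. The conditions did not overlap, and the control lying nearest to the Meis1-OE libraries was library C, which had the highest proliferation score of the 3. The condition means were 1316 ± 135 and 2143 ± 436 CPM (SD, n = 3 for each), and the log2 fold change was -0.70 with a 95% interval from -1.10 to -0.31 (standard error 0.17, edgeR adjusted p = 0.0535). The DESeq2 Wald test gave an adjusted p of 0.00952, and without YFP-CTRL C edgeR gave -0.84 and an adjusted p of 0.00904. Over all 14 alternatives it stayed between -0.84 and -0.52. A long non-coding RNA gene that overlaps Cdh5, Gm29682, had at most 7 counts in any library.

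Cdh2 encodes N-cadherin, which in endothelium lies mostly outside the junction and contacts mural cells. Its level was 84.1, 80.3 and 77.7 CPM in Meis1-OE EC, against 118, 96.7 and 121 CPM in YFP-CTRL EC. Here the closest control was library B. The means of 80.7 ± 3.20 and 112 ± 13.3 CPM (SD, n = 3 each) differed by -0.47 on the log2 scale, with a 95% interval from -0.76 to -0.19 and an adjusted p of 0.0627 from edgeR. DESeq2 gave an adjusted p of 0.0149 for Cdh2, and leaving out YFP-CTRL C gave 0.0253 with edgeR.

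Both cadherins thus had low values in every Meis1-OE library, with calls that depended on the test and on 1 control library. Cdh5 and Cdh2 each passed in only 2 of 14 alternatives, and without Meis1-OE B edgeR gave adjusted p-values of 0.227 and 0.269. The ratio of Cdh2 to Cdh5 did not separate the conditions. Within each library, 7.11, 6.11 and 5.35 Cdh2 counts were found per 100 Cdh5 counts in Meis1-OE EC, and 5.84, 3.68 and 6.80 in YFP-CTRL EC (two-sided exact permutation test, p = 0.6).

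The catenins bind the cadherin tails. Ctnnb1 (chr9:120933400-120960507) was at 516, 613 and 658 CPM in Meis1-OE EC and at 483, 563 and 560 CPM in the YFP-CTRL libraries. Its conditions overlapped, and the log2 fold change of 0.15 had a 95% interval from -0.15 to 0.46 (adjusted p = 0.491, edgeR). Ctnnd1 (chr2:84587096-84658977) encodes p120-catenin, which holds VE-cadherin at the cell surface. It was at 292, 313 and 323 CPM in Meis1-OE EC and at 260, 304 and 365 CPM in YFP-CTRL EC. YFP-CTRL A lay below, C above and B within the Meis1-OE range, and a difference of Ctnnd1 beyond 0.33 on the log2 scale in either direction lay outside its 95% interval (-0.33 to 0.33, adjusted p = 0.997, edgeR).

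Set against Cdh5 in the same library, both catenins were more abundant in Meis1-OE EC. Per 100 Cdh5 counts there were 43.7, 46.7 and 45.3 Ctnnb1 counts in Meis1-OE EC, and 23.9, 21.4 and 31.4 in YFP-CTRL EC, a 1.79-fold difference. For Ctnnd1 the values were 24.8, 23.8 and 22.3 against 12.9, 11.6 and 20.5, a 1.63-fold difference. These ratios need no scaling between libraries. They shift with the Cdh5 level, which they share.

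Pecam1 (chr11:106654213-106715281) encodes CD31, an immunoglobulin-like protein of the lateral border outside the junctions proper and a sorting marker, as VE-cadherin is. It was at 804, 922 and 1004 CPM in Meis1-OE EC and at 769, 1161 and 1022 CPM in YFP-CTRL EC. The lowest and the highest value were both controls. The log2 fold change was -0.11 with a 95% interval from -0.52 to 0.29 (adjusted p = 0.723, edgeR). The deposited Pecam1 counts are not whole numbers, so some of its reads may have been shared with other features in the authors' counting. Cdh5 counts per 100 Pecam1 counts were 147, 143 and 145 in Meis1-OE EC against 262, 226 and 175 in YFP-CTRL EC. The ratio was 1.51-fold higher in YFP-CTRL EC (two-sided exact permutation p = 0.1, Benjamini-Hochberg adjusted 0.125). The 95% intervals of Cdh5 and Pecam1 overlapped. The spread of this ratio over the Meis1-OE libraries was small beside that over the controls.

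**Figure D2:**
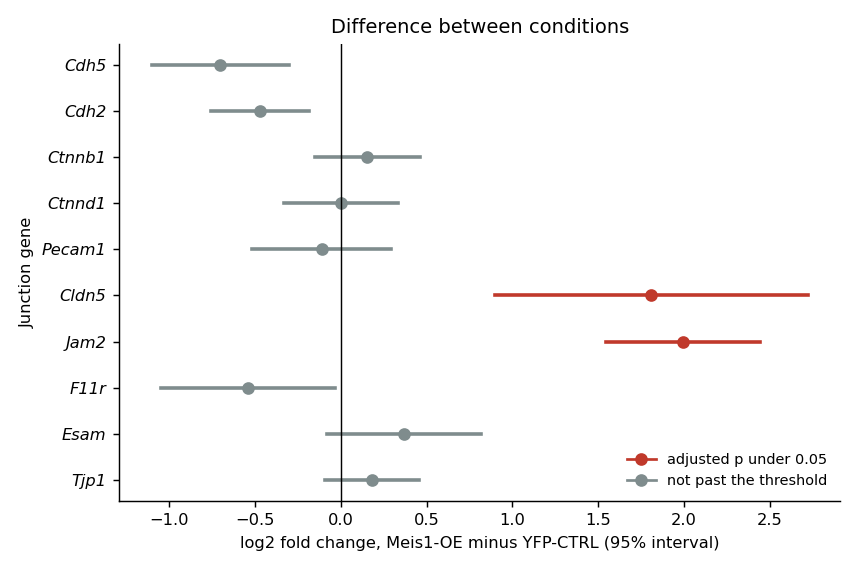
Log2 fold change of each junction gene, Meis1-OE minus YFP-CTRL (x axis), with its 95% interval from edgeR's quasi-likelihood test as a bar. Cldn5 (1.81) and Jam2 (1.99) passed an adjusted p of 0.05, and the intervals of Cdh5, Cdh2 and F11r lie below 0 without passing it.

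Among the tight junction genes, Cldn5 (chr16:18776847-18778262) was counted 7438, 9315 and 11347 times in Meis1-OE EC, and 899, 2739 and 3693 times in YFP-CTRL EC. That is 163, 205 and 245 CPM against 26.5, 67.1 and 81.3 CPM. All Meis1-OE libraries lay above all controls, and the controls themselves spanned 3.07-fold, lowest in A and highest in C. That is also their order in the proliferation score, and a link between the score and Cldn5 was not tested. The means were 204 ± 41.2 and 58.3 ± 28.5 CPM (SD, n = 3 each), and the log2 fold change was 1.81, with a 95% interval from 0.90 to 2.72 (standard error 0.39, adjusted p = 0.0398 from edgeR). Cldn5 no longer passed without Meis1-OE A (adjusted p = 0.0944), B (0.153) or C (0.160) or without YFP-CTRL B (0.130), with log2 fold changes between 1.66 and 1.95 in those edgeR fits. With the proliferation score as a covariate edgeR gave a log2 fold change of 1.08 (adjusted p = 0.107). The DESeq2 Wald test gave an adjusted p of 7.96e-05.

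Jam2 (chr16:84774123-84826380) encodes JAM-B, a junctional adhesion molecule of endothelium that binds JAM-C on other cells. It was counted 3856, 5193 and 6164 times in Meis1-OE EC and 943, 1269 and 1116 times in YFP-CTRL EC, or 84.4, 114 and 133 CPM against 27.8, 31.1 and 24.6 CPM. The conditions were far apart, with the lowest Meis1-OE library 2.71-fold above the highest control, and the controls spanned only 1.27-fold. The means of 111 ± 24.6 and 27.8 ± 3.27 CPM (SD, n = 3 each) gave a log2 fold change of 1.99 with a 95% interval from 1.54 to 2.44 (standard error 0.19, adjusted p = 0.00350 from edgeR). Jam2 passed the threshold in all 14 alternatives, with log2 fold changes from 1.84 to 2.16 and adjusted p-values up to 0.0267. The fit with the proliferation covariate gave 2.09 for Jam2 (adjusted p = 0.0120, edgeR). Cldn5 and Jam2 both lie on chromosome 16.

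The other immunoglobulin-like proteins of the tight junction did not pass the test. F11r (chr1:171437561-171464593) encodes JAM-A, which recruits polarity proteins to the tight junction. It was at 115, 136 and 138 CPM in Meis1-OE EC and at 188, 245 and 133 CPM in YFP-CTRL EC. Only YFP-CTRL C lay within the Meis1-OE range. The log2 fold change of F11r was -0.54 with a 95% interval from -1.05 to -0.03 (adjusted p = 0.170, edgeR), and leaving out YFP-CTRL C gave -0.76 (adjusted p = 0.0102). It was -0.30 without YFP-CTRL B and -0.24 with the proliferation covariate. Esam (chr9:37528089-37538319), an endothelial adhesion molecule of tight junctions, was at 219, 229 and 258 CPM against 132, 218 and 197 CPM. Its conditions were only just apart, the lowest Meis1-OE library being 1.01-fold above the highest control, and the log2 fold change of 0.37 had a 95% interval from -0.08 to 0.82 (adjusted p = 0.269, edgeR). The Esam value was 0.17 without YFP-CTRL A, the lowest control, and 0.08 with the proliferation covariate.

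Tjp1 (chr7:65296165-65527850) encodes ZO-1, the scaffold that links claudins and JAMs to actin. It was at 377, 396 and 427 CPM in Meis1-OE EC and at 326, 338 and 394 CPM in YFP-CTRL EC. YFP-CTRL C lay between Meis1-OE A and B, and the log2 fold change of 0.18 had a 95% interval from -0.09 to 0.46 (adjusted p = 0.362, edgeR). Measured against its claudin ligand, there were 232, 193 and 174 Tjp1 counts per 100 Cldn5 counts in Meis1-OE EC, and 1231, 504 and 484 in YFP-CTRL EC. The ratio was 3.38-fold higher in YFP-CTRL EC, with no overlap.

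Ratios between pairs of tight junction genes set the difference out library by library. Jam2 stood at 73.2, 84.2 and 96.6 counts per 100 F11r counts in Meis1-OE EC and at 14.8, 12.7 and 18.5 in YFP-CTRL EC, which is 5.56-fold apart. Cldn5 stood at 13.8, 15.6 and 16.9 counts per 100 Cdh5 counts in Meis1-OE EC and at 1.31, 2.55 and 4.56 in YFP-CTRL EC, or 6.20-fold apart, and Jam2 against Cdh5 was 6.33-fold apart. Against Pecam1, Cldn5 was 4.11-fold higher in Meis1-OE EC. The Cldn5 to Jam2 ratio gave no such separation, at 193, 179 and 184 counts per 100 in Meis1-OE EC against 95.3, 216 and 331 in YFP-CTRL EC (p = 1.0, two-sided exact permutation test). In Meis1-OE EC the ratio hardly moved, while in the controls it spread widely. Of the 10 ratios computed, 8 did not overlap between the conditions. Each of these had a two-sided exact permutation p of 0.1, the smallest that 3 libraries against 3 allow. After Benjamini-Hochberg adjustment over the 10 it was 0.125. Each of the 8 holds Cdh5, Cldn5 or Jam2, whose own levels did not overlap, so they restate the differences of those genes. The share of gene pairs in general that do not overlap was not computed.

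**Figure D3:**
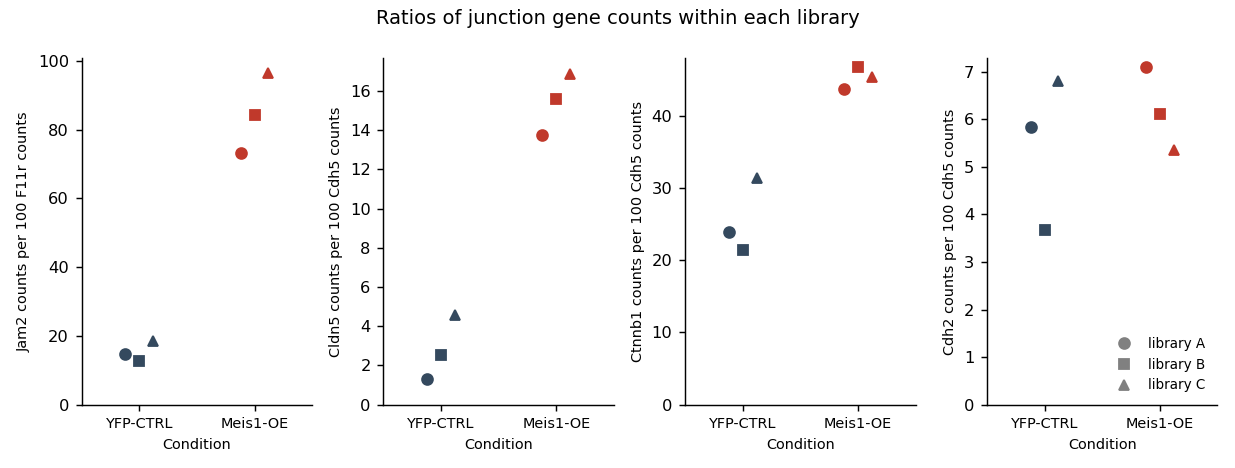
Counts of one junction gene per 100 counts of another within each library (y axes, each from 0), for Jam2 to F11r, Cldn5 to Cdh5, Ctnnb1 to Cdh5 and Cdh2 to Cdh5, in YFP-CTRL and Meis1-OE EC. The Cdh2 to Cdh5 ratio overlaps between the conditions, and the other ratios shown do not.

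Compared per kilobase of exon, which allows levels of different genes to be ordered, Cdh5 was the most abundant junction gene in both conditions, at 538 ± 109 CPM per kb in YFP-CTRL EC and 330 ± 33.8 in Meis1-OE EC. Pecam1 followed at 228 ± 46.1 and 211 ± 23.3 CPM per kb. In YFP-CTRL EC the order went on with Ctnnb1 at 105 CPM per kb, then F11r at 70.9, Esam at 63.6, Tjp1 at 47.9, Ctnnd1 at 42.3 and Cldn5 at 41.2, and ended with Cdh2 at 13.9 and Jam2 at 4.74. From F11r to Cldn5 each neighbour overlapped the next over the libraries, so their order is not resolved. In Meis1-OE EC the order after Pecam1 was Cldn5 at 144 CPM per kb, Ctnnb1 at 117, Esam at 82.1, Tjp1 at 54.4, F11r at 48.7, Ctnnd1 at 42.3 and Jam2 at 18.8, with Cdh2 last. Cldn5 and Ctnnb1 overlapped there, as did Tjp1 with F11r and F11r with Ctnnd1. By their means, Cldn5 thus moved from rank 8 to rank 3, and Jam2 moved above Cdh2, from rank 10 to rank 9. Cldn5 overlapped a neighbour in the order in both conditions, so its exact ranks are not resolved. Even after its rise Jam2 stayed the least abundant of the JAM and claudin genes among the 10.

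**Figure D4:**
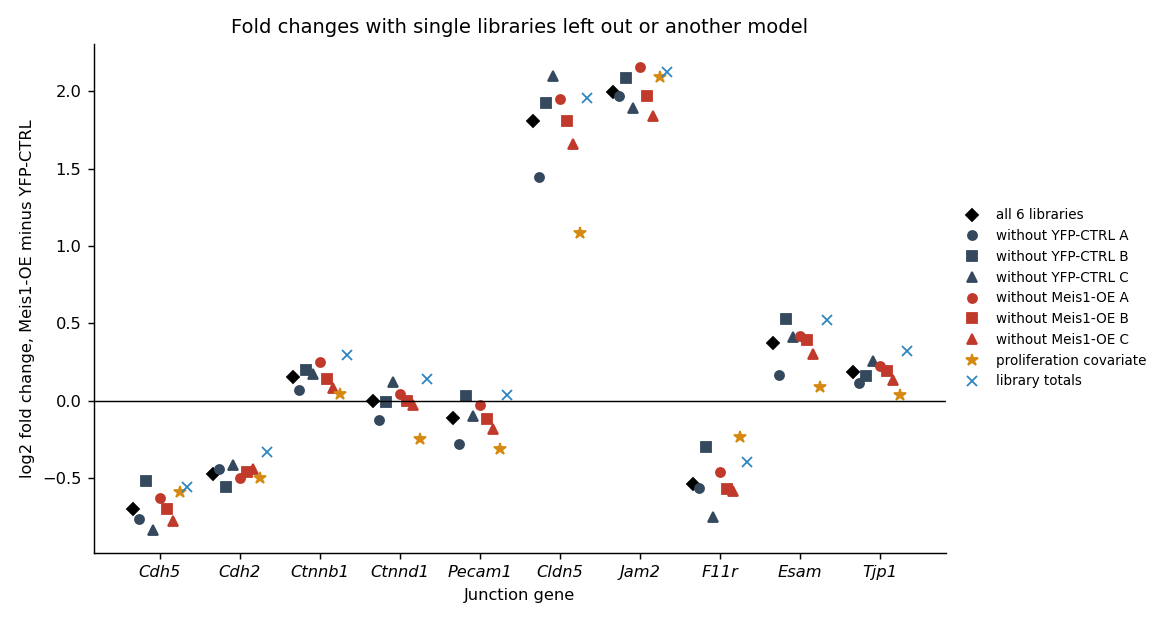
Log2 fold change of each junction gene, Meis1-OE minus YFP-CTRL (y axis), with all 6 libraries (diamonds), with each library left out, with the proliferation score as a covariate (stars) and on library totals (crosses). Jam2 stays between 1.84 and 2.16, Cldn5 drops to 1.08 with the covariate, and Ctnnd1 and Pecam1 lie on both sides of 0.

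The genes whose pattern over the 6 libraries was most like that of Cdh5 were sought among the 10221 tested genes with a mean of at least 5 CPM. Likeness was the root mean square difference between log2 levels, each centred at its gene's own mean, with a median of 0.429 over these genes. The nearest were Jak2 at 0.0543, Ece1 at 0.0561, Rpusd4 at 0.0644, Mocs1 at 0.0667 and Pgf at 0.0683. Jak2 encodes a cytokine receptor kinase, Ece1 the endothelin-converting enzyme and Pgf placental growth factor. All of these genes were, as Cdh5 was, highest in YFP-CTRL B and lower in each Meis1-OE library than in each control. This follows largely from their choice by likeness over the same 6 libraries. Ece1 was at 171, 201 and 208 CPM in Meis1-OE EC and at 325, 389 and 267 CPM in YFP-CTRL EC. Among the junction genes F11r came nearest to Cdh5, at 0.148 and rank 129, and Jam2 at 1.34 and Cldn5 at 1.42 were the farthest.

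The partners of these 10 genes were taken from 7 lists of 84 genes. A count was present for 77 of them and 65 passed the filter, of which edgeR called 3 higher and 2 lower, shares near the 4.14% and 2.73% of all tested genes. All Meis1-OE libraries lay above the controls for 11 and below them for 16, beside 17.2% and 15.9% of all tested genes. Their median log2 fold change was -0.11. Without YFP-CTRL C edgeR called 16 of 66 tested partner genes higher and 16 lower, beside 16.5% and 15.2% of all tested genes. Among those then lower were Cldn12, Foxo1, Pcdh1, Pvr and Znrf3, none of which passed with all 6 libraries. With the proliferation covariate 1 partner gene was higher and 6 were lower, beside 387 and 318 of all 16065 genes. The calls of Cldn1, Epas1 and Rap1b were lost in that fit.

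Of the tight junction partners, 15 were tested, and the claudins Cldn15 and Cldn1 were higher while Ybx3 was lower. Cldn15, which forms cation pores in epithelia, was counted 632, 667 and 865 times in Meis1-OE EC against 62, 57 and 105 times in YFP-CTRL EC. The lowest Meis1-OE library was 5.98-fold above the highest control, and edgeR gave a log2 fold change of 3.09 (standard error 0.24, adjusted p = 0.00180), past the threshold in all 14 alternatives. Cldn1, a sealing claudin, was far scarcer, with 32, 45 and 31 counts against 1, 9 and 7. Its log2 fold change of 2.48 had a 95% interval from 1.25 to 3.71 (adjusted p = 0.0384, edgeR) and passed in 8 of the 13 alternatives that tested it. Ybx3 encodes ZONAB, a factor that binds ZO-1, and was at 465, 431 and 452 CPM against 762, 667 and 704 CPM. It was lower in every Meis1-OE library (log2 fold change -0.66, standard error 0.10, adjusted p = 0.0147, edgeR) and passed in 11 of 14 alternatives, with adjusted p-values of 0.0636, 0.127 and 0.105 without Meis1-OE A, B or C. The most abundant gene of this list, the cingulin-like scaffold Cgnl1, did not pass, with a log2 fold change of -0.11 and a 95% interval from -0.53 to 0.30. Among the remaining claudins and JAMs, named after their values were seen, Cldn12 had a log2 fold change of -0.27 and Jam3, the JAM-C partner of JAM-B, had 0.08 (adjusted p = 0.520 and 0.786, edgeR). The calls of Cldn15 and Jam2 held in every alternative, and those of Cldn5 and Cldn1 were lost without any 1 of the Meis1-OE libraries, without YFP-CTRL B and with the proliferation covariate.

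None of the 12 tested adherens partners passed, with a median log2 fold change of 0.14. The most abundant were Ptprb, the phosphatase VE-PTP that binds VE-cadherin, at -0.22 (95% interval -0.49 to 0.06), and the alpha-catenin gene Ctnna1 at -0.36 (-0.71 to -0.02, adjusted p = 0.174, edgeR). Every Meis1-OE library had less Ctnna1 than any control. None of the 6 tested cadherins and protocadherins outside the 10 genes passed either, and 5 of them had a negative log2 fold change. Pcdh1, the most abundant, was at 301, 303 and 333 CPM in Meis1-OE EC and at 405, 628 and 470 CPM in YFP-CTRL EC (log2 fold change -0.68, adjusted p = 0.0590, edgeR), without overlap. Cdh13, T-cadherin, had a log2 fold change of -0.19. The lateral border glycoproteins, 4 genes, had a median of -0.75 and none passed. Mcam (CD146) had a log2 fold change of -0.94 with a 95% interval from -1.66 to -0.22, and Pvr had -0.86 with an interval from -1.63 to -0.08, both with overlapping conditions.

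Among 19 tested genes of junction signalling 1 was lower. Rap1b, a small GTPase that tightens endothelial junctions, was at 203, 230 and 238 CPM in Meis1-OE EC and at 413, 427 and 289 CPM in YFP-CTRL EC, with a log2 fold change of -0.75 (adjusted p = 0.0435, edgeR). It shares long stretches of sequence with Rap1a, whose log2 fold change was -0.27, so reads could have been assigned to either, and Rap1b passed in 6 of 14 alternatives. The most abundant genes of this list, Rac1 and Rhoa, had log2 fold changes of 0.11 and 0.19 with overlapping conditions. Of 7 tested factors known to bind or control Cdh5 and Cldn5, 1 was higher. Epas1, the hypoxia-inducible factor HIF-2 alpha, was at 363, 446 and 470 CPM in Meis1-OE EC and at 189, 231 and 289 CPM in YFP-CTRL EC (log2 fold change 0.85, standard error 0.18, adjusted p = 0.0389, edgeR), and it passed in 9 of 14 alternatives. Foxo1, which represses Cldn5 in EC, was at 118, 123 and 129 CPM against 213, 278 and 131 CPM. All Meis1-OE libraries lay below the controls, YFP-CTRL C by a small margin, and edgeR gave a log2 fold change of -0.75 (adjusted p = 0.116). Of the beta-catenin targets only Znrf3 and Tcf7 had enough counts to be tested, with log2 fold changes of -0.39 and 0.33, neither of which passed.

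**Figure D5:**
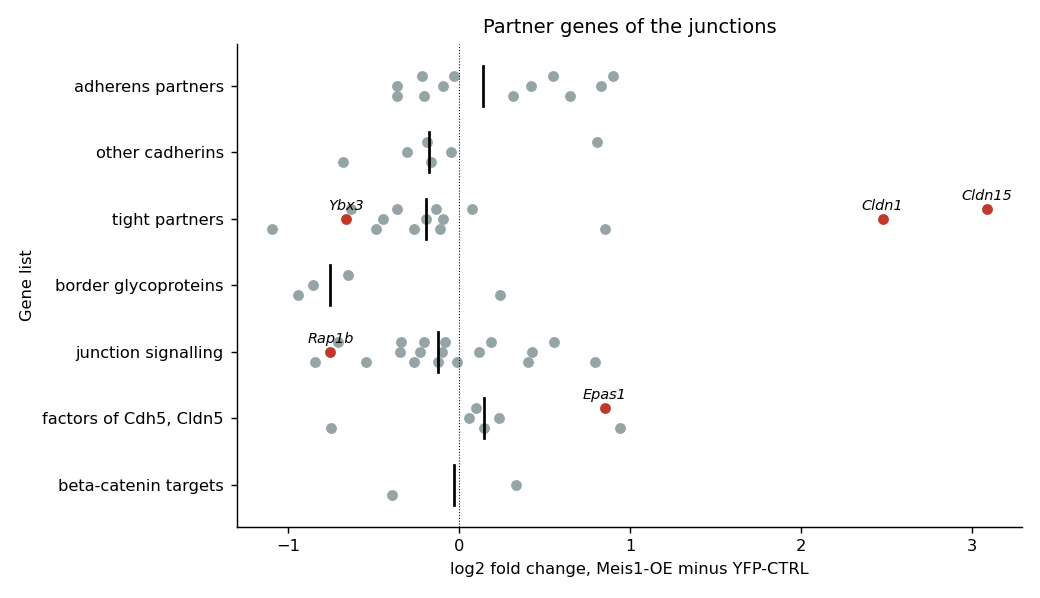
Log2 fold change, Meis1-OE minus YFP-CTRL (x axis), of each tested gene in the 7 partner lists (1 point per gene), with a bar at each list's median. The 5 genes past an adjusted p of 0.05 are named, with Cldn15 (3.09) and Cldn1 (2.48) to the right and Rap1b and Ybx3 to the left.

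Markers of other cell types were set beside these values. The epithelial genes Cdh1, Epcam, Cldn3, Cldn7 and Krt14 were at 0 in all 6 libraries, and the other 2 genes of that list, Krt5 and Cldn4, had at most 1 count in any library. Of 8 hematopoietic genes, C1qa, C1qb and Tyrobp were at 0, Ptprc and Fcer1g had at most 4 counts and Spi1 at most 1. The list summed to 69.5 to 106 CPM in Meis1-OE EC and 65.1 to 140 CPM in YFP-CTRL EC, nearly all of it Cd68, a lysosomal protein, which ran from 64.7 to 140 CPM over the 6 libraries. Lyz2, a lysozyme gene of macrophages, had 6, 40 and 37 counts in Meis1-OE EC against 8, 8 and 7 in YFP-CTRL EC (adjusted p = 0.181, edgeR). Of 4 lymphatic genes, the factor Prox1 had at most 2 counts and Pdpn was at 0, while Flt4, the receptor VEGFR3, ran from 50.3 to 151 CPM and overlapped between the conditions. Lyve1, a receptor for hyaluronan, was at 76.1, 78.0 and 84.1 CPM in Meis1-OE EC against 230, 461 and 161 CPM in YFP-CTRL EC, and was lower (log2 fold change -1.84, adjusted p = 0.0301, edgeR). The part of these markers in the junction gene values was not tested. Summed over 9 mesenchymal genes, the level was 3.97 to 5.95 CPM in Meis1-OE EC and 1.65 to 22.9 CPM in YFP-CTRL EC, the highest in library C, where Acta2 was at 19.8 CPM. Other endothelial markers differed in both directions. Vwf, the von Willebrand factor gene, was at 24.3, 77.6 and 87.1 CPM in Meis1-OE EC against 8.13, 6.23 and 7.39 CPM in YFP-CTRL EC (log2 fold change 3.12, adjusted p = 0.0120, edgeR). Tek, the receptor TIE2, was lower (-0.78, adjusted p = 0.0351), and Kdr, the receptor VEGFR2, lay lower without passing (-1.23, adjusted p = 0.0504, edgeR). Tie1, Eng, Emcn and Egfl7 overlapped between the conditions. Egfl7 had a log2 fold change of -0.64 with a 95% interval from -1.21 to -0.08 (adjusted p = 0.149, edgeR).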

How the data were processed

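The authors deposited unnormalized estimated counts per gene for 6 ribodepleted RNA-seq libraries, and all 6 columns were used. The submitters' processing notes name the genome build mm10, and the aligner, the counting tool and the use of strand are not given in the sources used here, so reads of overlapping or antisense genes cannot be told apart. Conditions came from the labels and the columns carry letters that are not tied to the labels' replicate numbers. After rounding, counts were tested with edgeR 4.0.16 under R 4.3.3 (TMM, filterByExpr, quasi-likelihood test on all 16065 genes kept, Benjamini-Hochberg threshold 0.05), with limma 3.58.1 and DESeq2 1.42.0. Plots were made with Python 3.11.15 and matplotlib 3.10.9. The biological coefficient of variation was 0.233. Scripts were tested on simulated data.

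Coordinates and promoters are those of RefSeq on GRCm38.p6, the build also called mm10. Exon lengths for the levels per kb came from a GENCODE annotation of build NCBIM37, which is not the authors' annotation, and were used only to order the 10 genes. Each value of n is a number of libraries. The members, the lists and the tests were chosen with earlier results of these data known. Genes named are the 10 junction genes, Meis1, every partner gene past the threshold, the 2 genes of highest mean CPM in each partner list, markers needed to show presence or absence, and the 5 genes of at least 5 mean CPM most like Cdh5. Other genes are said to be named after their values were seen. Alternatives were the DESeq2 Wald test, a robust fit, scaling by library totals or by DESeq2's size factors, dropping the low-count filter or requiring 10 counts in all libraries, each library left out in turn, a replicate block by column letter, the proliferation score as a covariate, and thresholds of 0.1 and 0.01. Counting error alone limits a value of 0 counts to 3 counts.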

Additional observations from a re-analysis of the deposited data

How the results depend on the processing

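Of 140 values of single junction genes under the alternatives, 122 kept their direction and side of the threshold, 5 lost and 5 gained the threshold, and 8 changed sign. The sign changes were those of Pecam1 (0.033 on library totals, -0.279 to 0.031 with single libraries left out) and Ctnnd1 (0.142 on library totals, 0.0029 without the filter, 0.0084 with at least 10 counts, 0.012 with the replicate block, -0.125 to 0.121 with single libraries left out), both near 0. Counts higher and lower in Meis1-OE EC are given in that order. On library totals, which shift the median of all genes to 0.152, the partner genes were 5 and 1 and all genes 1048 and 179. The DESeq2 Wald test gave 2 lower junction genes, 6 and 8 partner genes, and 1124 and 1115 genes in all. With the proliferation covariate 1 junction gene was higher, partner genes were 1 and 6, and 387 genes in all were higher. An adjusted p under 0.1 gave 2 lower junction genes, 5 and 8 partner genes and 1138 and 1073 genes in all, and under 0.01 it gave 1 higher junction gene, 1 and 0 partner genes, and 168 and 40 genes in all.

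With single libraries left out, higher junction genes numbered 1 to 2 and lower ones 0 to 3, partner genes 1 to 16 higher and 0 to 16 lower, and all genes 115 to 2717 higher and 16 to 2498 lower. The highest counts were those without YFP-CTRL C and the lowest those without Meis1-OE B. Same-letter libraries correlated at 0.245 (A), 0.190 (B) and 0.0809 (C) in their deviations from the condition means. Meis1-OE C correlated best with YFP-CTRL B (0.249), and every other pair of unlike letters was negative (-0.301 to -0.0275). Whether a letter marks a shared culture is not stated and these values do not settle it. The main fit treated the letters as names only. The replicate block left the 2 higher junction genes in place (Cldn5 1.94, Jam2 1.97) and gave 1 lower partner gene and 544 higher and 189 lower genes in all. Except where shown above, the cause of these shifts was not tested.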

Other observations

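Several other cadherin and tight junction genes were at or near the counting floor in these aortic EC. Cdh3, Tjp3, Cldn3 and Cldn11 were at 0 in all 6 libraries, which allows up to 0.0626 to 0.0878 CPM per library at 3 counts, a limit of counting error only. Cgn had at most 5 counts, Lsr at most 7 and Marveld2 at most 8. Occludin (Ocln) had 19, 8 and 15 counts in libraries A, B and C of Meis1-OE EC against 19, 33 and 27 in YFP-CTRL EC (log2 fold change -1.09, adjusted p = 0.131 by edgeR). These genes were named after their values were seen.

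Axin2, a target of beta-catenin signalling, was counted 10, 16 and 9 times in Meis1-OE EC and 0 times in each YFP-CTRL library. It had too few counts for the filter and was not among the 65 partner genes tested. In the 6 alternatives that tested it, its adjusted p ran from 0.0022 to 0.0957, and it passed in 4 of them. Lef1, another target, had at most 3 counts, and Nkd1 was at 0 in all libraries. These genes, too, were named after their values were seen.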
